A study of Homo sapiens with 5 samples.

Results

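The genes described here were 9 genes of the bone morphogenetic protein (BMP) pathway, taken by name from the 2694 genes that the deposited files list in every library. They were 5 target genes (ID2, ID4, SMAD9, HEY1 and ATOH8), 3 genes of secreted modulators (NOG, BMPER and GREM1) and the receptor gene BMPR2. Total RNA was sequenced from TC28a2 cells, an immortalised human chondrocyte line labelled as derived from costal cartilage, after 5 days in growth medium (GM, n = 2 libraries) or hypertrophic medium (HM, n = 3 libraries), to ask how the RNA of the cells changed under conditions of chondrocyte hypertrophy. GM was high-glucose DMEM with 10% fetal bovine serum. HM had the same base but 1% serum, and was supplemented with GDF-5 at 10 ng/ml, BMP-2 at 100 ng/ml, dexamethasone at 10 nM, β-glycerophosphate at 10 mM, ascorbic acid at 50 µg/ml, the thyroid hormone T3 at 1 µM and 1% insulin, transferrin and selenium, with a change of medium every 2 days. BMP-2 and GDF-5 are themselves ligands of the pathway, but every component differed between the media at once, so the part of any single component cannot be told apart. The study describes its replicates in general as biological, but neither the labels nor the methods say whether each library came from a culture of its own. The p-values therefore measure the spread among these 5 libraries, part of which may be technical.

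BMPs are secreted ligands that bring together type I and type II receptors on the cell surface, and the activated type I receptor phosphorylates SMAD1, SMAD5 and SMAD9, which enter the nucleus with SMAD4 and bind the control regions of target genes. Outside the cell, noggin, gremlin and related proteins bind the ligands and limit their access to receptors, and several of these modulators are known to be transcribed in response to BMP. In the growth plate the pathway is known for its part in cartilage formation and in the maturation of chondrocytes to the hypertrophic state.

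Each gene had 1 value per library on the authors' log2 scale after RLE normalization, a median-ratio scaling between libraries. The transformation is not named further and the read depth is unknown, so a difference of these values is given as a log2 difference on the deposited scale and not as a fold change in reads. Differences are HM minus GM and were tested with limma, which sets each difference against a replicate spread moderated over all 2694 genes, with Benjamini-Hochberg adjustment, and a gene was called at an adjusted p under 0.05. The listed genes appear to be those the authors called between the media on the same libraries. Of them, 62.5% were called higher in HM and 36.5% lower, 99% in either direction, and in 99% the GM and HM libraries did not overlap. All 9 BMP pathway genes were called and showed no overlap, with 6 higher and 3 lower. As nearly every listed gene was called, this count says nothing particular to them, and the size, direction and spread of each gene are described instead.

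The scaling of the libraries bears on these values. The medians of the listed genes were 8.17 and 8.18 in GM replicates 1 and 2 and 8.62, 8.52 and 8.43 in HM replicates 1, 2 and 3. Centring each library on its median lowered every difference by 0.35, and because 63.4% of the listed genes were higher in HM, that median itself carries the selection of the list. With centring, 845 genes were called higher and 987 lower, against 1683 and 984 as deposited, and quantile normalization gave 1257 and 964. The HM libraries varied more than the GM libraries, with Euclidean distances over the listed genes of 16.7 between HM replicates 1 and 2, 19.6 between 1 and 3 and 14.6 between 2 and 3, while the GM libraries were 8.90 apart. Values are therefore given for each library.

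The chondrocyte label was checked on 12 marker genes. SOX9, COL2A1, ACAN, COL9A2 and COL9A3 were listed, and these cartilage genes were all higher in HM, with COL2A1, the main collagen gene of cartilage, at 7.57 and 7.83 in GM and 9.50, 9.03 and 9.16 in HM. The values of SOX9, the transcription factor of the chondrocyte lineage, were 10.85 and 10.69 in GM and 11.59, 11.47 and 11.18 in HM. The other 7 markers had no row, which in a selected list does not show that they were silent. Of 6 hypertrophic markers, MMP13 and PTH1R were listed and higher, and COL10A1, IHH, RUNX2 and SPP1 had no row. Among markers of other cell types, 4 of 6 fibroblast genes (COL1A1, COL3A1, PDGFRA and PDGFRB), 1 of 6 osteoblast genes (PHEX) and, of 6 endothelial genes, TEK were higher, while the endothelial gene CDH5 was lower. After median centring SOX9, MMP13, PHEX and COL1A1 were not called (adjusted p = 0.0525, 0.116, 0.0501 and 0.289, limma), and neither was COL1A1 without GM replicate 2 (adjusted p = 0.0946, limma). Quantile normalization also ended the SOX9 call, lowering its log2 difference from 0.65 to 0.29 (adjusted p = 0.059, limma). These marker genes moved between the media along with the BMP pathway genes, and their part in those results was not tested.

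All 5 target genes rose in HM. The RNA came from whole cultures, in which more cells making an RNA and more of it per cell (or, for a gene that fell, fewer and less) cannot be told apart. HEY1, which encodes a basic helix-loop-helix repressor and is a direct target of both BMP and Notch signaling, had the widest difference among them. Its values were 8.83 and 8.87 in GM and 11.77, 10.96 and 11.27 in HM. The lowest HM library lay 2.09 above the highest GM library, and the GM libraries were almost equal (SD 0.025, n = 2). The log2 difference of HEY1 was 2.48 (standard error, SE, 0.21, 95% confidence interval 2.01 to 2.96, adjusted p = 3.6e-05, limma), which placed it at rank 8 from the top of the 2694 listed genes. An exact permutation test of the 5 libraries, two-sided with 10 arrangements, gave p = 0.1, the smallest it can give. HEY1 lies on the minus strand of chromosome 8 of GRCh37, the build of hg19, from 80674606 to 80680092.

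The other 4 targets moved by less. ID2 and ID4 encode inhibitors of differentiation, helix-loop-helix proteins without a DNA-binding region that hold basic helix-loop-helix factors away from DNA. ID2, on chromosome 2 from 8818975 to 8824591, was 6.28 and 6.52 in GM and 7.41, 6.77 and 7.02 in HM. The groups did not overlap, but the gap between the nearest libraries, GM replicate 2 and HM replicate 2, was 0.25 and smaller than the SD of 0.32 (n = 3) within HM. Its log2 difference was 0.66 (SE 0.20, adjusted p = 0.0113, limma). ID4, on chromosome 6 from 19837601 to 19842428, was 6.86 and 6.71 in GM and 8.02, 6.99 and 7.30 in HM. HM replicate 1 stood well above the rest, and HM replicate 2 was only 0.13 above GM replicate 1. The log2 difference of ID4 was 0.65 (SE 0.27, 95% confidence interval 0.04 to 1.26, adjusted p = 0.0393, limma), and leaving out HM replicate 1 gave 0.36 (adjusted p = 0.0675, limma). Leaving out GM replicate 1, GM replicate 2 or HM replicate 3 also ended the ID4 call, with log2 differences of 0.72, 0.58 and 0.72. The difference was thus larger than with all libraries without GM replicate 1 and without HM replicate 3 (adjusted p = 0.0672 without HM replicate 3, limma). The ID2 call was lost without GM replicate 1, at a log2 difference of 0.54.

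SMAD9 encodes a receptor-regulated SMAD of the BMP branch and is itself a transcriptional target of that branch. It lies on the minus strand of chromosome 13 from 37418968 to 37495024 and was 7.16 and 7.54 in GM and 7.76, 7.88 and 7.996 in HM. The HM libraries lay close together, and the wider spread was in GM, where replicate 2 reached within 0.22 of the lowest HM library. SMAD9 rose by 0.53 (SE 0.17, adjusted p = 0.0145, limma), and by 0.34 without GM replicate 1, where it was not called (adjusted p = 0.203, limma). ATOH8, a basic helix-loop-helix factor gene on chromosome 2 from 85978467 to 86018506, was 6.92 and 6.77 in GM and 7.26, 7.72 and 8.03 in HM. All HM libraries were above GM, by 0.42 in replicate 1 and by 1.19 in replicate 3, measured from the GM mean. ATOH8 rose by 0.83 (SE 0.22, adjusted p = 0.00632, limma). HM replicate 1 thus held the highest value of ID2, ID4 and HEY1 but the lowest HM value of SMAD9 and ATOH8, so the targets did not order the HM libraries alike. Exact permutation gave p = 0.1 for SMAD9 and p = 0.2 for ID2, ID4 and ATOH8, since 1 other arrangement of the libraries gave a difference at least as large.

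After each library was centred on its median, ID2, ID4, SMAD9 and ATOH8 were still higher in HM, by 0.32, 0.30, 0.18 and 0.48, but none of these 4 was called (adjusted p = 0.152, 0.281, 0.375 and 0.112, limma). Of the 8 listed target genes HEY1 alone remained called, at 2.14 (adjusted p = 2.17e-05, limma). Quantile normalization ended the calls of ID4 and SMAD9 (adjusted p = 0.0987 and 0.174, limma) and kept those of ID2, HEY1 and ATOH8. The 95% confidence interval of HEY1 as deposited began above the upper ends of those of ID2, ID4, SMAD9 and ATOH8, which reached 1.12, 1.26, 0.92 and 1.33 and overlapped one another. Differences between genes were not tested. Reads of ID2 and of the lncRNA gene ID2-AS1, which shares 145 exonic bases with it on the opposite strand, cannot be told apart if counting ignored strand, which is not stated.

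**Figure D1:**
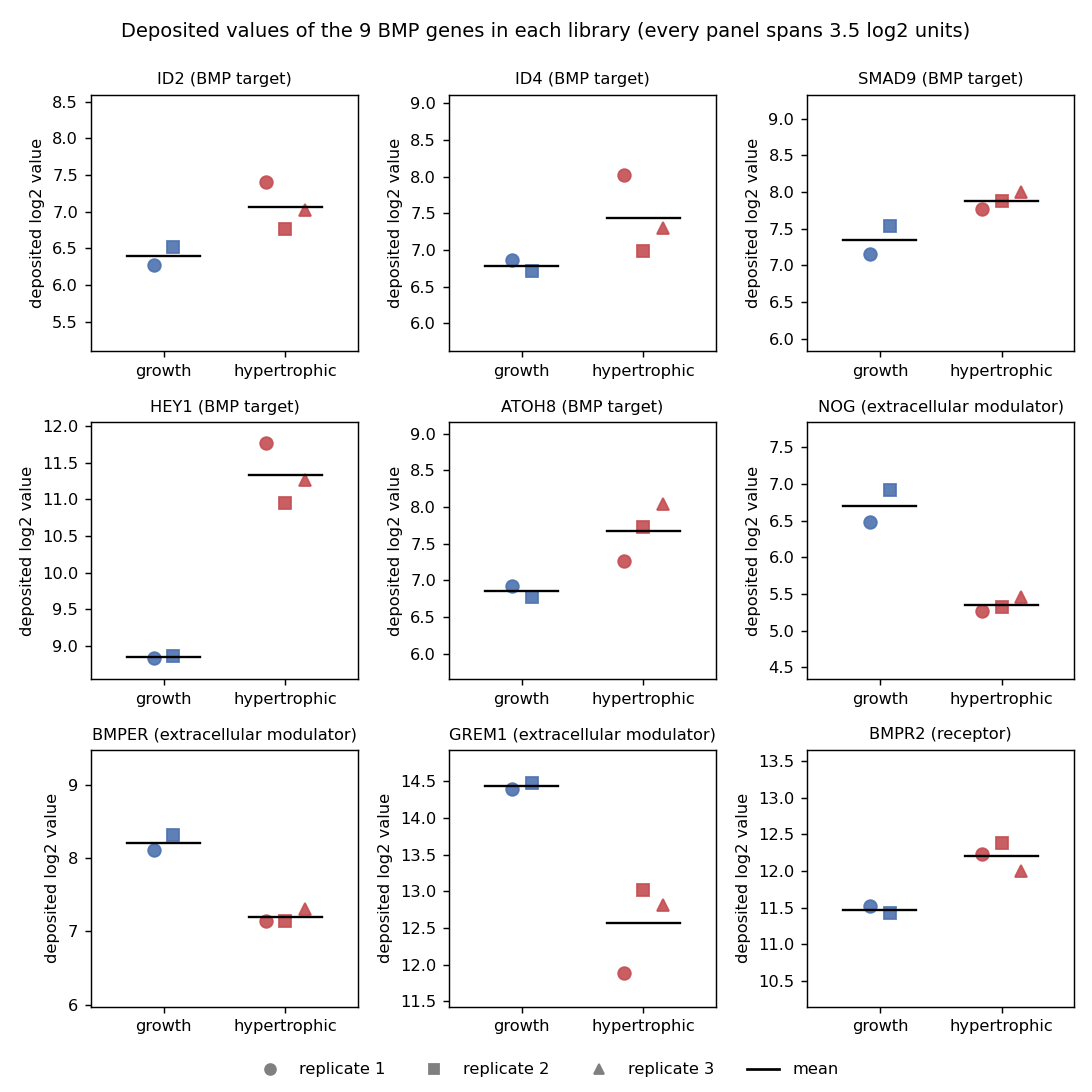
Deposited log2 values of the 9 BMP pathway genes in each library, 1 panel per gene, with growth medium (blue) and hypertrophic medium (red), symbols for the replicate number and a line at the mean; every panel spans the same number of log2 units. The media do not overlap in any panel, and the gap runs from 0.13 for ID4 to 2.09 for HEY1.

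The target list held 20 genes, of which 8 were listed, and all 8 were called higher in HM with a median log2 difference of 0.64, against 0.56 over all listed genes. That count was not stable: 3 were called higher without GM replicate 1, 5 without HM replicate 1 and 7 without any other single library, and 5 after quantile normalization and 1 after median centring. Over all listed genes, 1438 were called higher without GM replicate 1 and 1624 without HM replicate 1, against 1683 with all libraries, so the targets lost a larger share of their calls than the listed genes in both fits. Without HM replicate 2 and without HM replicate 3, 1573 and 1661 listed genes were called higher, and the targets again lost the larger share. Only without GM replicate 2 did the listed genes lose the larger share, and no difference between these shares was tested. The 3 targets beyond the members were HEYL, a relative of HEY1, DLX3, a homeobox gene, and GATA3, a zinc finger factor gene. HEYL was 5.20 and 5.31 in GM and 5.84, 5.92 and 5.92 in HM, and rose by 0.64 (adjusted p = 0.00138, limma). DLX3 and GATA3 rose by 0.40 and 0.61, and each lost its call without HM replicate 1 (adjusted p = 0.0535 and 0.0511, limma) and without GM replicate 1 (adjusted p = 0.12 and 0.16, limma). GATA3 was also not called without HM replicate 2 (adjusted p = 0.0547, limma) or after quantile normalization (adjusted p = 0.0515, limma), and median centring ended the calls of HEYL, DLX3 and GATA3 (adjusted p = 0.0931, 0.75 and 0.244, limma). Among the 12 target genes with no row were ID1, ID3, SMAD6, SMAD7, MSX1 and MSX2, which are widely used readouts of the pathway, and nothing can be said of them here.

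HEY1 and HEYL are also Notch targets, and of 20 Notch pathway genes 6 were listed, all higher in HM, with a median of 0.71. NOTCH3, a Notch receptor gene, was 11.52 and 11.42 in GM and 13.53, 13.90 and 13.17 in HM. The groups were far apart, and its log2 difference was 2.07 (SE 0.19, adjusted p = 4.85e-05, limma). The receptor gene NOTCH4, the ligand gene DLL1 and the coactivator gene MAML1 rose by 0.69, 0.61 and 0.73. DLL1 was not called without GM replicate 2 (adjusted p = 0.111, limma), and after median centring neither DLL1 nor NOTCH4 was called (adjusted p = 0.163 and 0.0519, limma). The shares of BMP and of Notch signaling in the HEY1 difference cannot be told apart. JAG1, HES1 and NOTCH1 were among the 14 Notch genes with no row.

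All 3 modulator genes fell in HM. GREM1 encodes gremlin, a secreted antagonist that binds BMP-2 and BMP-4, and lies on chromosome 15 from 33010205 to 33037307. It was 14.39 and 14.47 in GM and 11.88, 13.01 and 12.82 in HM. The GM libraries agreed closely, every HM library was lower by more than 1, and HM replicate 1 was lowest, which gave GREM1 the widest HM spread of the 9 genes (SD 0.61, n = 3). The log2 difference of GREM1 was -1.86 (SE 0.28, 95% confidence interval -2.49 to -1.23, adjusted p = 0.000484, limma), rank 40 from the bottom of the listed genes, and -1.51 without HM replicate 1. GREM1 shares 367 exonic bases with the lncRNA gene GREM1-AS1 on the opposite strand, so its reads carry the same doubt about strand as those of ID2.

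NOG encodes noggin, an antagonist that covers the receptor-binding surfaces of BMPs, and is a single-exon gene on chromosome 17 from 54671060 to 54672972. It was 6.48 and 6.92 in GM and 5.26, 5.33 and 5.46 in HM. The HM libraries were tightly grouped more than 1 below the lower GM library, and most of the spread was between the GM libraries (SD 0.31, n = 2). NOG had a log2 difference of -1.35 (SE 0.16, adjusted p = 0.000169, limma). BMPER, which encodes a secreted BMP-binding protein that can limit or aid signaling, lies on chromosome 7 from 33943920 to 34196039 and was 8.10 and 8.31 in GM and 7.14, 7.13 and 7.31 in HM. Here too the HM libraries were close together (SD 0.097, n = 3) and all below GM. BMPER differed by -1.01 (SE 0.16, adjusted p = 0.000545, limma). For GREM1, NOG and BMPER the exact permutation p was 0.1, and the calls held with each library left out in turn, with adjusted p of at most 0.00221, 0.00241 and 0.00906 (limma). Median centring took these 3 genes further from 0, to -2.21, -1.70 and -1.36.

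Of the 22 extracellular modulators in the list, 7 were listed, with 6 lower in HM, 1 higher and a median of -1.01. CRIM1, a membrane protein gene whose product binds BMPs, was 14.93 and 14.81 in GM and 13.41, 13.51 and 13.45 in HM. Its libraries varied little within either medium, and its log2 difference was -1.41 (SE 0.11, adjusted p = 2.22e-05, limma). FSTL3, a follistatin-like gene whose product binds mainly activins, and TLL1, which encodes a protease that cleaves the BMP antagonist chordin, fell by 0.64 and 0.74. The exception was DAND5, an antagonist gene of the same family as GREM1, at 4.94 and 4.83 in GM and 5.51, 5.33 and 5.52 in HM. It rose by 0.57 (adjusted p = 0.00209, limma) as deposited and by 0.22 after median centring, where it was not called (adjusted p = 0.168, limma). CHRD, FST and TWSG1 were among the 15 modulators with no row.

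BMPR2 encodes the type II receptor for BMPs and lies on chromosome 2 from 203241050 to 203432474. It was 11.52 and 11.42 in GM and 12.24, 12.38 and 12.00 in HM. The libraries were even within each medium, and the lowest HM value, in replicate 3, lay 0.49 above GM replicate 1. The log2 difference of BMPR2 was 0.74 (SE 0.13, 95% confidence interval 0.43 to 1.04, adjusted p = 0.00109, limma) and the exact permutation p was 0.1. After median centring it was 0.39 and still called (adjusted p = 0.0198, limma). With each library left out in turn BMPR2 stayed called, with an adjusted p of at most 0.0159 (limma). It shares 57 exonic bases with another gene model on its own strand, and reads of the pair cannot be told apart there.

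Of 12 receptor and coreceptor genes, 4 had a row, and the 4 were called higher in HM, with a median of 0.68. ACVR1, a type I receptor gene, was 10.26 and 10.21 in GM and 10.90, 10.97 and 10.70 in HM, and rose by 0.62 (SE 0.13, adjusted p = 0.00184, limma). RGMA, a coreceptor gene, rose by 0.76 (adjusted p = 0.00089, limma). ENG, which encodes the coreceptor endoglin, was 9.17 and 8.92 in GM and 9.84, 9.93 and 9.13 in HM, so that HM replicate 3 lay below GM replicate 1 and the groups overlapped. Its difference of 0.58 had an adjusted p of 0.033 (limma), and the call was lost without GM replicate 2, HM replicate 1 or HM replicate 2 (adjusted p = 0.148, 0.0724 and 0.132, limma). Median centring ended the calls of ACVR1 and ENG (adjusted p = 0.061 and 0.308, limma), as did quantile normalization (adjusted p = 0.128 and 0.615, limma). BMPR1A, BMPR1B and ACVRL1 had no row.

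The remaining BMP lists were ligands and signal transducers. Of 18 ligand genes, 3 were listed, and all 3 were lower in HM, with a median of -0.90. GDF5, the gene of a ligand that HM supplied as protein, was 10.12 and 10.14 in GM and 8.95, 9.39 and 9.25 in HM. The groups were well separated, and GDF5 fell by 0.93 (SE 0.16, adjusted p = 0.000808, limma). BMP5 and GDF6 fell by 0.90 and 0.75. BMP2, the gene of the other ligand supplied, had no row. Of 12 transducers and intracellular inhibitors, SMAD9, SKI and SMURF2 were listed. SKI, a nuclear corepressor of SMADs, rose by 0.82 (adjusted p = 0.00143, limma), and SMURF2, a ubiquitin ligase that targets SMADs and receptors, fell by 0.83 (adjusted p = 0.000262, limma).

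**Figure D2:**
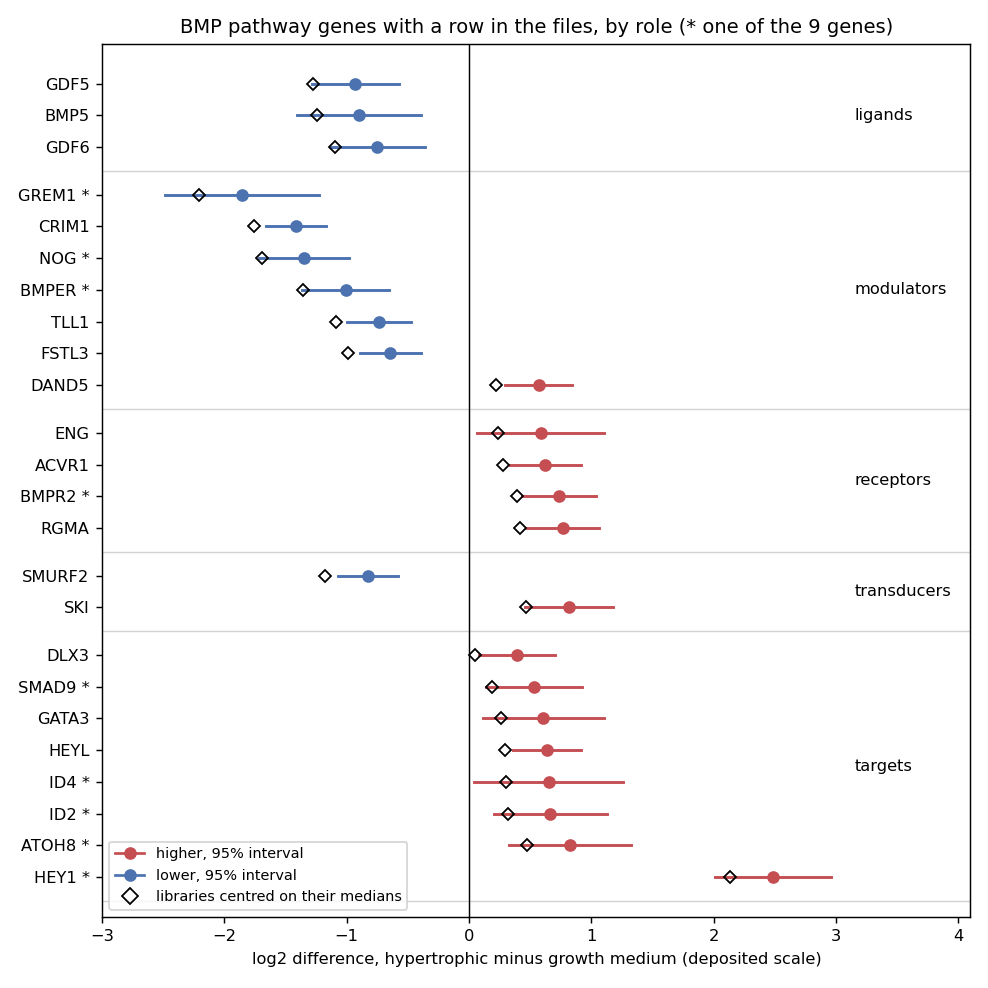
Log2 difference (HM minus GM, deposited scale) of the 24 BMP pathway genes with a row, by role, with 95% confidence intervals from limma, red for higher and blue for lower; asterisks mark the 9 members and diamonds the difference after median centring, which lies 0.35 lower for every gene. All listed ligands and 6 of 7 modulators lie left of 0, and all listed receptors and targets lie right of it, with DLX3 near 0 after centring.

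Across all the BMP lists, 24 of 81 genes were listed, 14 higher and 10 lower in HM, with a median of 0.55. Without the 9 members, 15 of 72 genes were listed, 8 higher and 7 lower, with a median of 0.40, while over all listed genes 1683 were called higher, 984 lower and the median was 0.56. The numbers called higher depended on the libraries used and on the scaling. Without GM replicate 1 they were 9 with the members and 6 without them, and without HM replicate 1 they were 10 and 5. Over all listed genes the same 2 fits called 1438 and 1624 higher. Without HM replicate 2 the BMP lists had 12 genes called higher with the members and 6 without them, against 1573 listed genes. Without HM replicate 3 they had 13 and 8, against 1661. Without GM replicate 2 the BMP lists, with or without the members, lost a smaller share of these calls than the listed genes. Differences between the shares were not tested. After median centring, 4 of the 24 genes were called higher (HEY1, BMPR2, SKI and RGMA), and 10 were called lower.

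**Figure D3:**
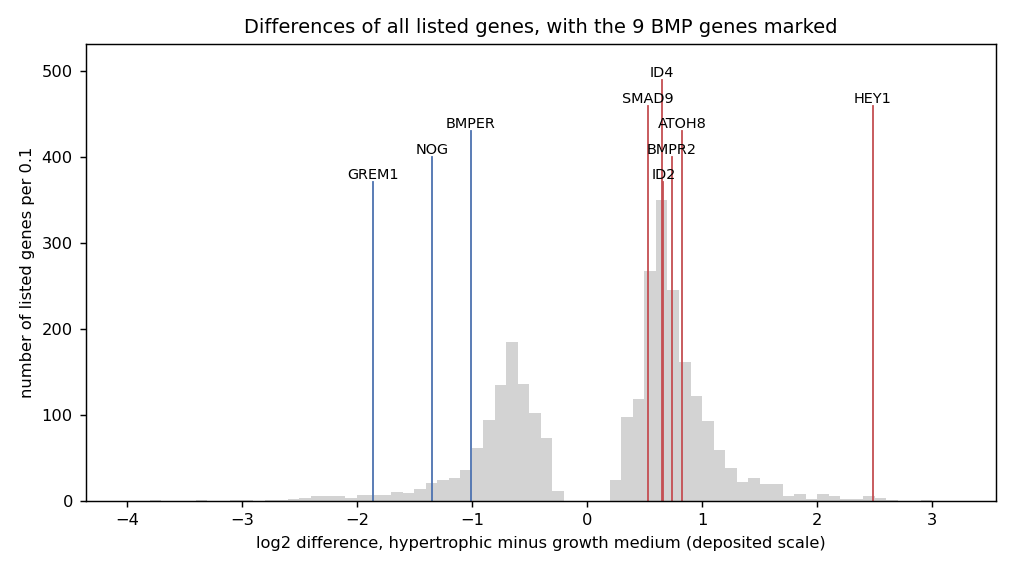
Number of listed genes per 0.1 of log2 difference (HM minus GM, deposited scale), with vertical lines at the 9 members, blue for lower and red for higher. HEY1, GREM1, NOG and BMPER lie in the tails, the other 5 lie in the main body of the higher genes, and no listed gene has an absolute difference under 0.21.

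Promoter sequences were examined because the 5 targets were all higher and the 3 modulators all lower in HM, and that of the 1 receptor gene is shown beside them. RefSeq promoters of GRCh38.p14, 250 bases before to 50 after a start, were examined for 7 of the 9 members. Each was found exactly once in GRCh37, whose coordinates are used here. The promoters of HEY1 and NOG were not examined, so nothing can be said of motifs in them. The letters searched on both strands were GGCGCC, the SMAD1 and SMAD5 part of known BMP response elements, which reads the same on both strands; GTCT and its reverse complement AGAC, the SMAD box; GTCTAGAC, the SMAD palindrome, which contains both; and TGGGAA, the core of the site of the Notch factor RBPJ. The promoter of ID2 (chr2:8821936-8822235, plus strand, inside the annotated gene) stands for the targets, that of BMPER (chr7:33944277-33944576, plus strand, inside the annotated gene, the first of 2) and that of GREM1 (chr15:33009955-33010254, plus strand, across the annotated start, the first of 2) for the modulators, and that of BMPR2 (chr2:203240800-203241099, plus strand, across the annotated start) for the receptor. Capitals mark GGCGCC and both readings of the SMAD box.
ID2: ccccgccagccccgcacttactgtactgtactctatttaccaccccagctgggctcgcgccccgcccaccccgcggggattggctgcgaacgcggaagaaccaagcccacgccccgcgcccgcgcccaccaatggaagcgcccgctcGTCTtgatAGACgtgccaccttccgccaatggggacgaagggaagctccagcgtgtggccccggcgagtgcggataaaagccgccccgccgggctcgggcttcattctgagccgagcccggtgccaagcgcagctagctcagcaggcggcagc
BMPER: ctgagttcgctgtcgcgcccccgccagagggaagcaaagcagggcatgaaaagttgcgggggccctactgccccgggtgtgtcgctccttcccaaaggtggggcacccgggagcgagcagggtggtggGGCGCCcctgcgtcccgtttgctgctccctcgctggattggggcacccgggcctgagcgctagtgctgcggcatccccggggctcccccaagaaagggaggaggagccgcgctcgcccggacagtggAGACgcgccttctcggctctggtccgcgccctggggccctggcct
GREM1: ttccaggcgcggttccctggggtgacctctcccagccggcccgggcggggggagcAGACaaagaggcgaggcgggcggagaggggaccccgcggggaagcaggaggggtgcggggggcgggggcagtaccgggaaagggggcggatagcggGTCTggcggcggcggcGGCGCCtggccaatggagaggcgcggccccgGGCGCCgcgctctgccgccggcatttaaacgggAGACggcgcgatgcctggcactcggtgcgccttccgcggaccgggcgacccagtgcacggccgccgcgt
BMPR2: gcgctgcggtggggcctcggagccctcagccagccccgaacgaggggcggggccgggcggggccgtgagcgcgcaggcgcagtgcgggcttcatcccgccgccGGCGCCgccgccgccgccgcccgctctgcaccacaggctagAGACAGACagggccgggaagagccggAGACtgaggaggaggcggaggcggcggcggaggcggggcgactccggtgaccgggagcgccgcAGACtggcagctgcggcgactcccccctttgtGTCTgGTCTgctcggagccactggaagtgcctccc

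GGCGCC was found in both BMPER promoters, in the first GREM1 promoter and in the BMPR2 promoter, and was not in the windows of ID2, ID4, SMAD9 and ATOH8. It was thus present for 3 of the 7 members examined, those of 2 falling genes and 1 rising gene. It was held by 19.2% of all 35116 RefSeq promoters, and by 26.1% of 2722 promoters of listed genes. These shares count single promoters, whereas the count of members is by gene, and BMPER and GREM1 had 2 windows each. The count and the shares are therefore not on the same unit. GTCT or AGAC occurred 6 times in the BMPR2 window, 3 and 2 times in the GREM1 windows, 1 and 2 times in the BMPER windows, 2 times each for ID2 and SMAD9, once for ID4 and not at all for ATOH8. Of all promoters 84.0% held at least 1. TGGGAA was found in the first BMPER window alone among the 9 windows (24.0% of all promoters), and GTCTAGAC in none (0.20%). The windows had a high content of G and C, from 64.7% for ATOH8 to 79.7% for SMAD9, and the shares were not matched for it. A match is a description of these letters and not of a bound site.

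The genes most like each member over the 5 libraries were found by the Euclidean distance between values taken relative to each gene's GM mean. For HEY1 they were KANK4, APOE and C4A, at distances of 0.16, 0.24 and 0.28, with log2 differences of 2.39, 2.59 and 2.57. KANK4 shared the order of the HM libraries, at 9.98, 9.10 and 9.43 against 7.07 and 7.15 in GM. Reads of C4A can be split with its near-identical copy C4B, so its value is uncertain. For GREM1 the nearest were ALCAM, ADAMTS6 and INHBA, at 0.53, 0.60 and 0.61, farther than the 3 nearest of any other member. ALCAM was -2.13 from its GM mean in HM replicate 1, where GREM1 was -2.55 from its own. NOG was nearest to EVI2A, LINC01173 and BNIP3, and BMPER to HDAC9, RPL22L1 and TPD52. BMPR2 had the closest neighbours, RAVER1, TNS1 and PLAGL2, at 0.069, 0.076 and 0.084. Of the targets with smaller differences, ID2 was nearest to ZNF660, NNMT and TRAPPC6A, ID4 to TNRC6C-AS1, PKIB and MDFI, SMAD9 to C1GALT1C1L, ZNF488 and PSPN, and ATOH8 to PLD1, POSTN and ARHGAP28.

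The HM libraries differed in how far they lay from GM. Over all listed genes, 50.2% were farthest from the GM mean in HM replicate 1, 30.4% in replicate 2 and 19.5% in replicate 3. Of the 9 members, 5 were farthest in replicate 1 (ID2, ID4, HEY1, NOG and GREM1), 2 in replicate 2 (BMPER and BMPR2) and 2 in replicate 3 (SMAD9 and ATOH8). The lead of replicate 1 was thus seen over the listed genes at large and not in the members alone.

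**Figure D4:**
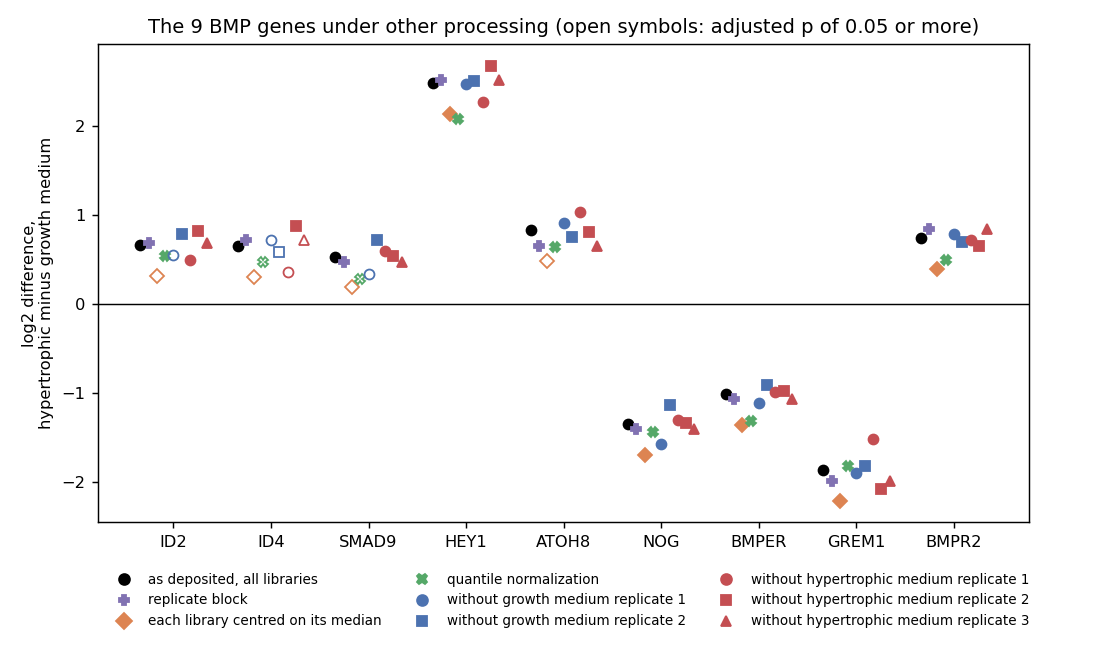
Log2 difference (HM minus GM) of the 9 members as deposited (black) and under other processing, including each library left out in turn; open symbols mark an adjusted p of 0.05 or more in limma. HEY1, NOG, BMPER, GREM1 and BMPR2 have filled symbols throughout, while ID2, ID4, SMAD9 and ATOH8 have open ones, and no member crosses 0.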

How the data were processed

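Total RNA of TC28a2 cells was sequenced from 2 GM and 3 HM libraries (TruSeq Stranded Total RNA kit), grouped by their labels. Per the study's methods, the authors aligned reads to hg19 with HISAT2, counted known NCBI genes with StringTie, left out genes with a zero count, and deposited log2 values after RLE normalization. The submitters' processing notes instead name bcl2fastq 2.20.0.422, cutadapt 1.18, TopHat2 2.0.13, Cuffdiff 2.2.1 and rn5, a rat build, which was not resolved; the symbols are human. The authors' own test, the DESeq2 Wald test, needs counts and could not be repeated. Depth is unknown, so no counting error was given.

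Values as deposited were compared with limma 3.58.1 (R 4.3.3; lmFit and eBayes with a trend of variance on mean, the replicate number not in the model) over 2694 genes without a filter, tested beforehand on simulated data, and single members by exact permutation. Tables, motif searches and plots used Python 3.11.15 with pandas 2.3.3, scipy 1.17.1 and matplotlib 3.10.9. The members and lists were chosen with earlier results of these data known. Named genes were the members, every listed gene of the BMP, TGF-beta and activin, Notch, basic helix-loop-helix and cell type lists, and the 3 genes nearest each member; some genes that this covers are not reported here. Since the listed genes were selected, lists were described by counts and medians. Gene positions are from GENCODE 44 lifted to GRCh37. Alternatives were the replicate block, each library left out, median centring, quantile normalization, no trend, a filter on mean value and a minimum difference of 1.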

Additional observations from a re-analysis of the deposited data

How the results depend on the processing

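The 9 members kept their direction under every alternative that gave a value. HEY1, NOG, BMPER and GREM1 remained called in each that tested them, and BMPR2 in each but the minimum difference. Over the 5 fits that leave out 1 library, the log2 differences ranged from 0.49 to 0.81 for ID2, 0.36 to 0.87 for ID4 and 0.34 to 0.72 for SMAD9, which lost calls, and the genes of all BMP lists called higher from 9 (without GM replicate 1) to 13. With 1 GM library left, its spread is assumed to be that of HM. Median centring, which lowers each difference by 0.35, ended the calls of ID2 (0.32), ID4 (0.30), SMAD9 (0.18) and ATOH8 (0.48) and left 4 BMP list genes and 845 listed genes called higher. Quantile normalization ended those of ID4 (0.47) and SMAD9 (0.28) and left 9 BMP list genes called higher; the cause was not tested. The filter kept the 1347 genes with the higher mean values, of which 926 were called higher and 418 lower, with 5 BMP list genes higher; ID2, ID4, SMAD9, ATOH8, NOG and BMPER fell below it and gave no value. A minimum absolute difference of 1 left 318 genes called higher and 190 lower, 1 and 4 of them in the BMP lists, and excluded by construction ID2 (0.66), ID4 (0.65), SMAD9 (0.53), ATOH8 (0.83) and BMPR2 (0.74).

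With the replicate block, in which HM replicate 3 had a block of its own and added nothing to the difference, the log2 differences were 2.51 for HEY1 and -1.98 for GREM1, all 9 members remained called, and 1685 genes were called higher and 980 lower. This fit leaves 1 residual degree of freedom per gene, so its p-values rest almost wholly on the spread pooled over genes. Across genes, the difference of replicate 1 from replicate 2 had a correlation of -0.0253 between GM and HM, so the numbers did not pair the libraries. The precision rests on 2 and 3 libraries of unknown depth and on a list selected on the same libraries, and the log2 transformation is not described further.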

Other observations

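The TGF-beta and activin branch, which signals through SMAD2 and SMAD3, had 13 of 20 genes listed, 7 higher and 6 lower in HM, with a median log2 difference of 0.32 against 0.56 over all listed genes. The ligand genes split. TGFB3 was 8.75 and 8.61 in GM and 9.63, 9.94 and 10.02 in HM, higher in all 3 HM libraries (adjusted p = 0.000259, limma), and TGFB1 rose by 0.87 (adjusted p = 0.00115, limma), whereas TGFB2 fell by 0.83 (adjusted p = 0.000306, limma). The activin subunit gene INHBA was 14.07 and 14.03 in GM and 11.95, 12.28 and 12.26 in HM, so the groups lay far apart, and it fell by 1.89 (adjusted p = 1.28e-05, limma). INHBB and INHBE fell by 1.45 and 0.98. INHA, which encodes the inhibin alpha subunit, rose by 0.32 (adjusted p = 0.0253, limma) as deposited but was -0.03 after median centring, and it was not called without GM replicate 1 (adjusted p = 0.203, limma) or HM replicate 1 (adjusted p = 0.0652, limma).

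The coreceptor gene TGFBR3 rose by 1.29 (adjusted p = 0.000187, limma), and the latent TGF-beta binding protein genes LTBP2 and LTBP4 rose by 1.09 and 1.04. TGFBR2 rose by 0.75 (adjusted p = 0.021, limma), with HM values spread over 12.14, 11.59 and 11.02, and lost its call without GM replicate 2 (adjusted p = 0.0547, limma) or HM replicate 2 (adjusted p = 0.0709, limma) and after median centring (adjusted p = 0.135, limma) or quantile normalization (0.39, adjusted p = 0.184, limma). Without HM replicate 1, the highest of the 3, its difference was 0.47 and still called (adjusted p = 0.0279, limma). ACVR1C fell by 0.40 and was not called without GM replicate 1 (adjusted p = 0.103, limma). Of 10 basic helix-loop-helix partners and relatives of the ID proteins, BHLHE40 was listed, and it rose by 0.71 (adjusted p = 0.001, limma).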
